A study of Mus musculus with 6 samples.

Results

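The genes described here are 6 matrix metalloproteases (Mmp2, Mmp3, Mmp9, Mmp10, Mmp13 and Mmp14), the cell-surface metalloprotease Adam12 and 3 tissue inhibitors of metalloproteases (Timp1, Timp2 and Timp3). They were chosen by name and found by their Entrez identifiers, and all 10 had a row among the 24454 gene rows of the deposited table. RNA was sequenced from 6 libraries of Py2T, a mouse cell line established from a mammary tumour of an MMTV-PyMT mouse, in which a viral promoter drives the polyoma middle T antigen in mammary epithelium. The PBS control had 0 µM H2O2, the C40 line was given 40 µM H2O2 each day and the I60 line 60 µM, for 4 months and with 2 libraries each. All 3 groups share the parental line and its transgene. The control is labelled PBS, while the treatment protocol describes untreated cells. The libraries are described as biological duplicates, and whether they were kept apart during the 4 months is not known here, so p-values measure only the spread between libraries. An effect of H2O2 cannot be told apart from other divergence of the lines in culture.

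Matrix metalloproteases are zinc enzymes that are made as inactive precursors and, once activated, cut collagens, laminins, proteoglycans and many cell-surface proteins. Most are secreted, Mmp14 sits in the membrane, and the Timps bind active enzymes in the space outside the cell and block them. In mammary tissue these enzymes act during branching and involution, and in tumours much of the supply is known to come from stromal cells as well as from tumour cells. RNA levels do not tell how much of an enzyme is secreted or active.

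Libraries held 48113692 to 60260520 reads, so that 1 read equals 0.0166 to 0.0208 CPM, a unit that scales reads to library size. The epithelial keratins Krt8 and Krt18 were high in all 6 libraries, at 1059 to 1707 CPM for Krt8 and 1325 to 1697 CPM for Krt18, and neither was called changed in C40 or I60 against PBS by limma. The other 3 epithelial markers (Krt7, Epcam and Cdh1) were called lower in both lines, where 9.02% of all genes tested were called lower in C40 and 13.1% in I60. Cdh1 was at 0.187 and 0.129 CPM in I60, against 529 and 537 CPM in PBS. Of 8 fibroblast markers, 4 passed the filter of at least 1 CPM in at least 2 libraries. Dcn, Col1a1 and Col3a1 passed it only through the H2O2 lines and could be called in 1 direction only. Pdgfra was called higher in both lines, Col1a1 and Col3a1 likewise, and Dcn in C40, where 11.2% of all genes tested were called higher in C40 and 13.9% in I60. Their summed level was 628 and 161 CPM in C40 and 433 and 382 CPM in I60, against 7.16 and 6.22 CPM in PBS, most of it Col3a1 in both H2O2 lines. The fibroblast markers Lum, Fap and Thy1 were at 0 in every library. Of 7 leukocyte markers, Adgre1 and Cd3e were at 0 throughout and 2 were tested. Cd68 was called higher in I60 (log2 change 2.09, adjusted p = 0.00292) and not in C40 (-0.22, adjusted p = 0.647), while Csf1r was called lower in C40 (-1.84, adjusted p = 0.0109) and not called in I60 (-0.31, adjusted p = 0.547). Ptprc had 5 reads in C40 and 2 reads in I60, against 24 reads in PBS. Sums over the list were 10.3 and 6.44 CPM in C40 and 30.8 and 39.3 CPM in I60, against 20.5 and 21.4 CPM in PBS. The 4 neutrophil markers summed to 0.699 to 5.06 CPM and the 4 endothelial markers to 0.0749 to 0.894 CPM over all libraries. Col1a1, Col3a1 and Pdgfra moved with Mmp2 and Mmp13 in both lines, and Cd68, 1 of the 2 leukocyte markers tested, was higher in I60. Dcn was not called in I60 by limma (adjusted p = 0.235). The fibroblast collagen Col1a2 did not pass the filter. It had 0.956 and 0.736 CPM in C40 and 0.187 and 0.387 CPM in I60, against 0.280 and 0.216 CPM in PBS. The part of these markers in the results below was not tested. In bulk RNA a smaller share of cells with a transcript and less of it per cell cannot be told apart.

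Of the 10 genes, 3 were called higher in C40 than in PBS (Mmp2, Mmp9 and Mmp13), where 11.2% of the 11524 genes tested were called higher. In the other direction 0 of the 10 were called lower in C40 by limma, with 0 at an unadjusted p below 0.05 and 0 by edgeR or DESeq2, where 9.02% of all genes tested were called lower. In I60 against PBS, 4 were called higher (Mmp2, Mmp3, Mmp10 and Mmp13; 13.9% of all genes tested) and 3 lower (Adam12, Timp2 and Timp3; 13.1% of all). Between the lines, 2 were lower in I60 than in C40 (Mmp9 and Adam12; 5.73% of all), and 0 were called higher by limma, with 0 at an unadjusted p below 0.05 and 0 by edgeR or DESeq2 (3.51% of all). The 7 calls in I60 against PBS became 4 without PBS replicate 2, 4 without I60 replicate 1 and 2 without I60 replicate 2. The 2 calls in I60 against C40 became 1 without C40 replicate 1 or either I60 library and 5 by DESeq2. The median log2 change of the 10 was 0.57 in C40 against PBS and 0.55 in I60 against PBS, beside -0.02 and -0.002 over all genes tested. Calls were made at an adjusted p under 0.05 by limma on log2(CPM + 0.5), with Benjamini-Hochberg adjustment over all 11524 genes. Both comparisons with PBS use the same 2 control libraries. All 10 genes passed the filter of at least 1 CPM in at least 2 libraries. Mmp2 did so only through the H2O2 lines, so that its call was open in 1 direction only. Mmp9 reached 1 CPM in PBS replicate 1 (2.03 CPM) and not in PBS replicate 2 (0.697 CPM), so it also needed the H2O2 lines to pass.

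**Figure D1:**
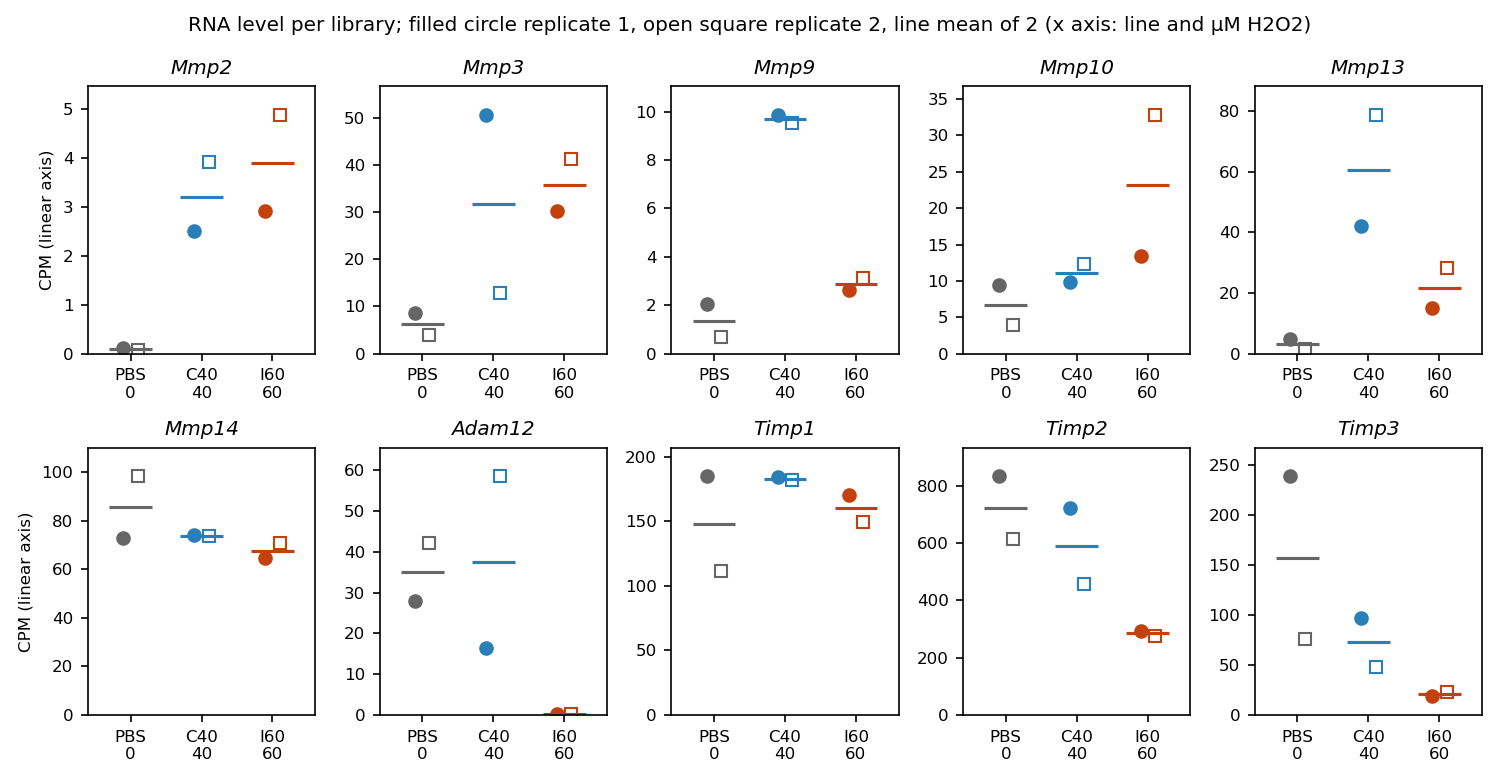
CPM of the 10 genes (linear axes) in each library against the line and its H2O2 dose in µM, with a filled circle for replicate 1, an open square for replicate 2 and a line for the mean of 2. Mmp2 and Mmp13 lie above PBS in both H2O2 lines, Mmp9 stands highest in C40, and Adam12 lies at 0.131 and 0.184 CPM in I60.

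Mmp13, the main interstitial collagenase of the mouse, showed the largest rise of the 10 genes in C40 on the log2(CPM + 0.5) scale. Mmp13 (chr9:7272514-7283333, mm10, plus strand) had 4.94 and 1.61 CPM in PBS, 42.0 and 78.8 CPM in C40, and 15.0 and 28.2 CPM in I60. All 4 H2O2 libraries lay above both PBS libraries, and both C40 libraries lay above both I60 libraries. Mmp13 rose 17.1-fold in C40 over PBS (log2 change 4.10, SE 0.54, limma adjusted p = 0.00237) and 6.22-fold in I60 over PBS (log2 change 2.64, SE 0.54, adjusted p = 0.0114). The difference of I60 from C40 was -1.46 on the log2 scale (95% interval -2.74 to -0.19), with an adjusted p of 0.168 by limma and 0.0356 by DESeq2. The C40 call held under all 15 alternatives, while the I60 call was lost without PBS replicate 2 (adjusted p = 0.0582) or without I60 replicate 2 (adjusted p = 0.0997). Over the alternatives the adjusted p ran from 3.83e-06 to 0.0997 for I60 against PBS and from 0.0356 to 0.576 for I60 against C40.

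Mmp3 and Mmp10 are stromelysins, which cut proteoglycans, laminin and fibronectin and can activate other precursor enzymes, Mmp13 and Mmp9 among them. Mmp3 (chr9:7445822-7455975, plus strand) had 8.49 and 3.93 CPM in PBS, 50.7 and 12.9 CPM in C40, and 30.3 and 41.3 CPM in I60. Mmp10 (chr9:7502342-7510242, plus strand) had 9.43 and 3.93 CPM in PBS, 9.85 and 12.3 CPM in C40, and 13.4 and 32.9 CPM in I60. For both genes every H2O2 library was above both PBS libraries, but C40 replicate 1 exceeded PBS replicate 1 only slightly for Mmp10, and the 2 C40 libraries differed widely for Mmp3. In I60 over PBS, Mmp3 rose 5.69-fold (log2 change 2.51, SE 0.63, adjusted p = 0.0256) and Mmp10 rose 3.24-fold (log2 change 1.70, SE 0.51, adjusted p = 0.0492). In C40 over PBS neither was called by limma, with log2 changes of 2.05 for Mmp3 (95% interval 0.56 to 3.54, adjusted p = 0.0609) and 0.80 for Mmp10 (-0.42 to 2.01, adjusted p = 0.309).

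The stromelysin calls changed with single libraries and with the settings. With no filter the Mmp3 call in I60 was lost (adjusted p = 0.0656 by limma). Mmp3 was called in C40 by edgeR (adjusted p = 0.0340) and DESeq2 (adjusted p = 0.000394), by limma on TMM-scaled CPM (adjusted p = 0.0489), and by limma without C40 replicate 2 (3.02 on the log2 scale, adjusted p = 0.00200). Over the 15 alternatives its adjusted p in C40 ranged from 0.000394 to 0.243. Its call in I60 was lost without PBS replicate 1 (adjusted p = 0.0523), PBS replicate 2 (0.138), I60 replicate 1 (0.0997) or I60 replicate 2 (0.156), in a range of 9.30e-05 to 0.156 over the alternatives. The Mmp10 call in I60 was lost without PBS replicate 2 (log2 change 1.11, adjusted p = 0.233) or I60 replicate 2 (log2 change 1.06, adjusted p = 0.261), and at a pseudocount of 1 (adjusted p = 0.0502), with no filter (0.106) or a filter of at least 5 CPM (0.0508), in a range of 0.00258 to 0.261.

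Mmp13, Mmp3 and Mmp10 lie in the Mmp gene cluster of chromosome 9, where 10 Mmp genes take up 427072 bases. The promoters of these 3 are shown because each holds an AP-1 motif, the site bound by Fos and Jun dimers that Mmp genes are known for, close upstream of a TATA box. Each line gives the 150 bases before the listed start, read 5′ to 3′ on the plus strand (RefSeq, GRCm38.p6), at chr9:7272364-7272513 for Mmp13, chr9:7445672-7445821 for Mmp3 and chr9:7502192-7502341 for Mmp10. Capitals mark the AP-1 motif, searched as TGANTCA, and the TATA box, searched as TATAAA.
Mmp13: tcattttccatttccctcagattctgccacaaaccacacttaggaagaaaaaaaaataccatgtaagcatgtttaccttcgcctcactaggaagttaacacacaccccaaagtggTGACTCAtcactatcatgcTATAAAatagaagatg
Mmp3: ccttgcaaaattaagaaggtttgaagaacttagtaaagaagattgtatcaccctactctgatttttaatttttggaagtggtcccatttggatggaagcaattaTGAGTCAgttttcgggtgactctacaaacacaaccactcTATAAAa
Mmp10: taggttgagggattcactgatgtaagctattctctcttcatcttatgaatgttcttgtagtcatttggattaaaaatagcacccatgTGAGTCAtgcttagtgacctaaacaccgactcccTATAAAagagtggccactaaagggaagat

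The AP-1 letters were TGACTCA at -35 to -29 in Mmp13, TGAGTCA at -46 to -40 in Mmp3 and TGAGTCA at -63 to -57 in Mmp10, counted from the listed start. TATAAA began at -16 in Mmp13, at -7 in Mmp3 and at -29 in Mmp10. Of 32851 mouse promoters of the same length, 6.75% held TGANTCA on either strand within 250 bases upstream, and 7.59% held TATAAA on the gene's own strand. Since the 3 promoters are shown for holding both motifs, nothing is read from these shares. Of the other 4 genes with a listed promoter (Mmp14, Timp1, Timp2 and Timp3), none held TGANTCA in these 250 bases. The remaining 3 genes (Mmp2, Mmp9 and Adam12) had no listed promoter and were not searched. A further 2 motifs were searched on both strands: AGGAAG (Ets), which 29.5% of all promoters held, and AACCACA (Runx), which 4.40% held. AGGAAG occurred in Mmp13 at -109 and -62, in Mmp3 at -183, in Timp1 at -175 and -99, in Timp3 at -204 and in Mmp14 at -209, and AACCACA occurred in Mmp13 at -119. A match describes letters only and does not show that a factor binds there.

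Among 13 AP-1, Ets and Runx factors, all passed the filter. In C40 against PBS 1 of them was called higher, where 11.2% of all genes tested were called higher. Jun, a subunit of AP-1, had 85.4 and 237 CPM in C40, against 42.8 and 22.6 CPM in PBS (log2 change 2.17, SE 0.49, adjusted p = 0.0221). In I60 Jun was at 41.3 and 38.0 CPM, within the range of PBS (log2 change 0.34, adjusted p = 0.644). The C40 call of Jun was lost without PBS replicate 2 (log2 change 1.72) and without I60 replicate 1 or 2 (2.17 for each), which enter through the shared spread. It was also lost by limma with no filter (adjusted p = 0.0594) and with only the groups compared (0.0604). In I60 against PBS 1 of the 13 was called higher (13.9% of all genes tested) and 1 lower (13.1% of all). The Ets factor Etv4 was the higher one (log2 change 0.92, adjusted p = 0.0120) and the AP-1 subunit Fosl2 the lower one (log2 change -1.25, adjusted p = 0.0207). Each of these was lost on leaving out a library, for Etv4 PBS replicate 1 (0.107), I60 replicate 1 (0.0761) or I60 replicate 2 (0.0837), and for Fosl2 PBS replicate 1 (0.126), PBS replicate 2 (0.0851) or I60 replicate 1 (0.136). Whether these factors act on the Mmp genes was not tested.

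Of the remaining 7 Mmp genes in the cluster, Mmp8, Mmp20 and Mmp7 had 0 reads in every library and Mmp27 had 1 read in each of 2 libraries. Mmp12 was at 0.0664 to 0.497 CPM and was not tested. Mmp1b, a collagenase paralog next to Mmp12, was at 2.35 and 0.331 CPM in C40 and 3.13 and 3.28 CPM in I60, against 2.08 and 0.996 CPM in PBS, and was not called in either line (adjusted p = 0.695 in C40 and 0.278 in I60). Mmp1a had 83 reads in I60 and 20 reads each in C40 and in PBS. Mmp1a and Mmp1b are close copies of each other, so the split of reads between them is uncertain. The flanking genes Dync2h1, Dcun1d5 and Birc2 were not called in either line against PBS, and Tmem123 was called lower in C40 (log2 change -0.66, adjusted p = 0.0436) and not in I60 (-0.32, adjusted p = 0.233). Within the cluster, calls against PBS were thus made for Mmp13 in both lines and for Mmp3 and Mmp10 in I60.

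**Figure D2:**
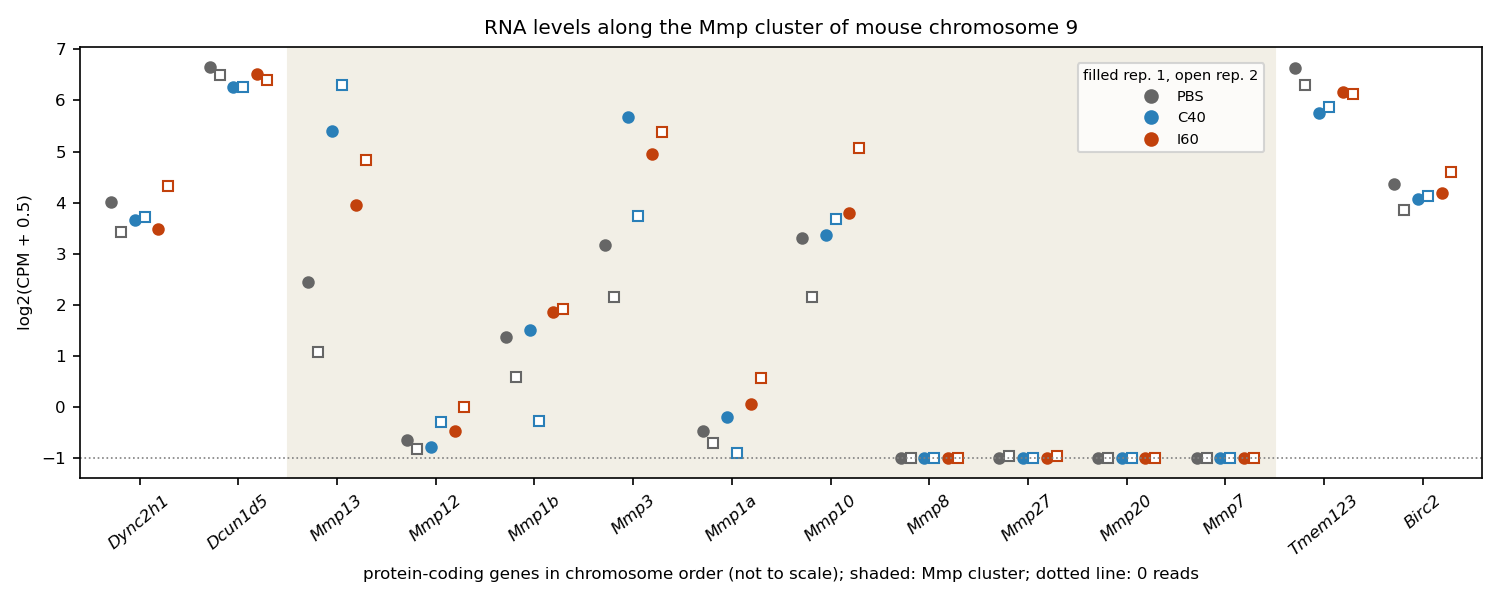
log2(CPM + 0.5) of the protein-coding genes along the chromosome 9 Mmp cluster (shaded) and 2 genes on each side, in chromosome order, for each library (filled circle replicate 1, open square replicate 2). Mmp13, Mmp3 and Mmp10 lie higher in the H2O2 lines than in PBS, and Mmp8, Mmp20 and Mmp7 lie on the dotted line of 0 reads. Of the flanking genes, Tmem123 lies lower in both H2O2 lines than in PBS and was called in C40 only, and the others were not called.

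The gelatinases Mmp2 and Mmp9 cut denatured collagen and the type IV collagen of basement membranes. Mmp2 (chr8:92827290-92853421, plus strand) had 0.105 and 0.0664 CPM in PBS, 2.49 and 3.92 CPM in C40, and 2.92 and 4.88 CPM in I60. Its pooled reads were 333 in C40 and 421 in I60, against 10 in PBS, a ratio per library size of 38.2 in C40 (exact 95% interval 20.5 to 80.3) and 45.9 in I60 (24.7 to 96.4), intervals that cover counting error only. Mmp2 was nearly absent from both PBS libraries and at similar levels in the 2 lines, which overlapped each other. On the log2(CPM + 0.5) scale, which understates changes of genes this low, the rise was 2.64 in C40 (SE 0.32, adjusted p = 0.00174) and 2.87 in I60 (SE 0.32, adjusted p = 0.000759). Both calls held under all 14 alternatives in which Mmp2 was tested, and I60 differed from C40 by 0.24 (95% interval -0.52 to 0.99, adjusted p = 0.733).

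Mmp9 (chr2:164940326-164955850, plus strand) had 2.03 and 0.697 CPM in PBS, 9.87 and 9.53 CPM in C40, and 2.64 and 3.11 CPM in I60. The C40 libraries lay together above all others, and both I60 libraries lay above both PBS libraries by a smaller step. PBS replicate 2 was under 1 CPM, so Mmp9 needed the H2O2 lines to pass the filter. Mmp9 rose 5.86-fold in C40 over PBS (log2 change 2.55, SE 0.37, adjusted p = 0.00362), a call that held under all 15 alternatives. In I60 over PBS its log2 change was 0.95 (95% interval 0.08 to 1.83, adjusted p = 0.102), which passed only without PBS replicate 1 (1.49, adjusted p = 0.0394) in a range of 0.0394 to 0.462 over the 15 alternatives. The difference between the lines was called, with Mmp9 3.03-fold lower in I60 than in C40 (log2 change -1.60, SE 0.37, adjusted p = 0.0411). This call was lost without either C40 library or either I60 library (adjusted p = 0.0511 and 0.0601 without a C40 library, 0.263 and 0.189 without an I60 library), and by edgeR (0.0593), at a pseudocount of 0.1 (0.0705) and with no filter (0.112), in a range of 0.00439 to 0.263.

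Mmp14, the membrane-type collagenase that activates the Mmp2 precursor in a complex with Timp2, was not called in any comparison. Mmp14 (chr14:54431598-54442456, plus strand) had 72.8 and 98.4 CPM in PBS, 74.1 and 73.8 CPM in C40, and 64.6 and 70.9 CPM in I60. The C40 libraries lay inside the range of PBS and the I60 libraries just under it. The log2 change was -0.19 in C40 against PBS (95% interval -0.66 to 0.27, adjusted p = 0.515) and -0.32 in I60 against PBS (-0.78 to 0.14, adjusted p = 0.269). The 2 PBS libraries were the furthest apart, and a missed threshold does not show that the levels were equal.

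Adam12, a transmembrane ADAM protease known to shed growth factor precursors such as HB-EGF, showed the largest difference among the 10 genes in I60. Adam12 (chr7:133883199-134225097, minus strand) had 27.9 and 42.2 CPM in PBS, 16.5 and 58.6 CPM in C40, and 0.131 and 0.184 CPM in I60. The 2 C40 libraries spread to either side of PBS, and both I60 libraries were far below the other 4. I60 held 17 Adam12 reads in all, against 4138 reads in PBS and 3979 reads in C40. The pooled level was thus 223 times higher in PBS than in I60 (exact 95% interval 139 to 384) and 246 times higher in C40 than in I60 (153 to 423). These intervals cover counting error only and leave out the spread between libraries, with 796 and 3183 reads in the 2 C40 libraries. On the log2(CPM + 0.5) scale Adam12 fell by 5.73 in I60 against PBS (SE 0.55, adjusted p = 0.000382) and its log2 change in I60 against C40 was -5.59 (SE 0.55, adjusted p = 0.00126). Both calls held under all 15 alternatives, with adjusted p-values up to 0.00851 against PBS and 0.0289 against C40. In C40 against PBS the difference was -0.13 (95% interval -1.44 to 1.17, adjusted p = 0.885), and its sign turned with edgeR and DESeq2 and without PBS replicate 2 or C40 replicate 1.

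Timp2 and Timp3 were lower in I60 than in PBS, and Timp1 was not called in any comparison. Timp2, which blocks Mmps broadly and also takes part in the activation of Mmp2, lies at chr11:118301061-118355411 on the minus strand. It had 833 and 614 CPM in PBS, 720 and 456 CPM in C40, and 292 and 277 CPM in I60. Both I60 libraries lay below the other 4, and C40 overlapped PBS. Timp2 was 2.51-fold lower in I60 than in PBS (log2 change -1.33, SE 0.26, adjusted p = 0.00896), while C40 against PBS gave -0.32 (95% interval -0.93 to 0.29, adjusted p = 0.411). The I60 call was lost without PBS replicate 1 (adjusted p = 0.0805), I60 replicate 1 (0.0604) or I60 replicate 2 (0.0743), with log2 changes of -1.55 to -1.11 on leaving out a library. The difference of I60 from C40 was -1.01 (95% interval -1.62 to -0.40), with an adjusted p of 0.0581 by limma, 0.0485 by limma on TMM-scaled CPM, 0.0442 by edgeR and 0.00257 by DESeq2, and of 0.00733 by limma without C40 replicate 2. Over the alternatives the adjusted p ran from 1.97e-05 to 0.0805 for I60 against PBS and from 0.00257 to 0.286 for I60 against C40.

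Timp3 is held in the matrix and blocks ADAM proteases besides Mmps. Timp3 (chr10:86300412-86349505, plus strand) had 239 and 75.9 CPM in PBS, 96.9 and 48.2 CPM in C40, and 19.3 and 22.7 CPM in I60. Both I60 libraries were below the other 4, and the 2 PBS libraries differed from each other more than either C40 library differed from PBS replicate 2. Timp3 was 6.31-fold lower in I60 than in PBS (log2 change -2.66, SE 0.54, adjusted p = 0.0115), and C40 against PBS gave -0.97 (95% interval -2.26 to 0.32, adjusted p = 0.246). The I60 call was lost without I60 replicate 1 (-2.54, adjusted p = 0.0853) or I60 replicate 2 (-2.77, adjusted p = 0.0729). The difference of I60 from C40 was -1.68 (95% interval -2.97 to -0.40, adjusted p = 0.123), which passed by DESeq2 (0.00405) and on leaving out PBS replicate 1, PBS replicate 2 or C40 replicate 2 (0.0457, 0.0445 and 0.0450). Adjusted p-values over the alternatives spanned 1.10e-07 to 0.0853 for I60 against PBS and 0.00405 to 0.433 for I60 against C40.

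Timp1, a secreted inhibitor that binds the Mmp9 precursor and is weak against Mmp14, lies at chrX:20870166-20874737 on the plus strand. It had 185 and 112 CPM in PBS, 184 and 182 CPM in C40, and 170 and 149 CPM in I60. All 4 H2O2 libraries lay inside the range of the 2 PBS libraries. The log2 change was 0.35 in C40 (95% interval -0.24 to 0.93, adjusted p = 0.350) and 0.15 in I60 (-0.43 to 0.74, adjusted p = 0.689), and without PBS replicate 2 these became -0.01 in C40 and -0.21 in I60.

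All 3 Timp genes overlap another gene in the annotation, and since the strand setting of the authors' counting is not given, reads of overlapping genes cannot be told apart. Timp1 lies within an intron of Syn1, Timp3 within Syn3 and Cep295nl within Timp2. Syn1 was at 0.216 to 2.43 CPM, Syn3 at 0.166 to 2.31 CPM and Cep295nl at 0.792 to 3.24 CPM over the 6 libraries, all far below the Timp gene they overlap.

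**Figure D3:**
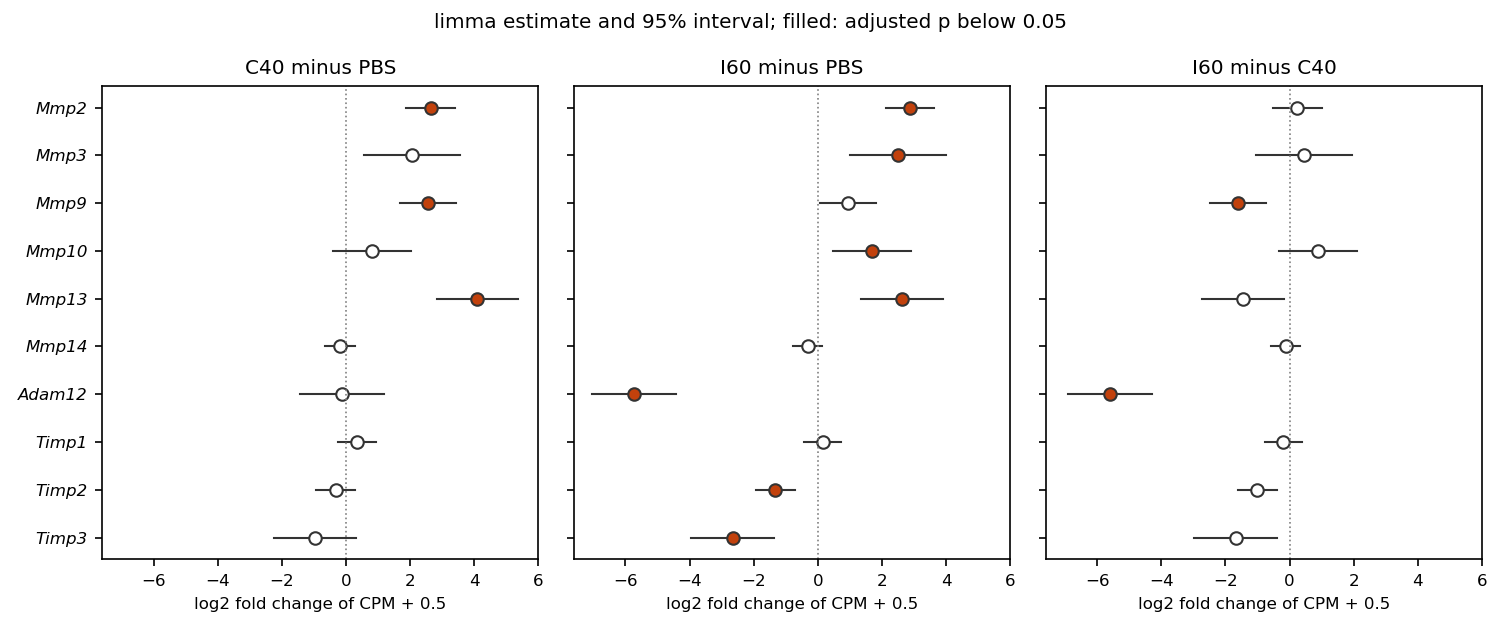
Log2 change of CPM + 0.5 for the 10 genes in the 3 comparisons, as the limma estimate with its 95% interval; filled points have an adjusted p below 0.05. Mmp2, Mmp9 and Mmp13 are filled and positive in C40 minus PBS, Adam12, Timp2 and Timp3 are filled and negative in I60 minus PBS, and Mmp9 and Adam12 are filled and negative in I60 minus C40.

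Compared per kilobase of exon, Timp1 and Timp2 were the most abundant of the 10 transcripts in every group. Timp2 averaged 186 ± 39.7 and Timp1 167 ± 58.4 CPM per kb in PBS (SD, n = 2), and these overlapped. In C40 Timp1 (206 ± 1.61) stood above Timp2 (151 ± 48.0), and in I60 Timp1 (180 ± 16.9) stood above Timp2 (73.0 ± 2.63), with no overlap of libraries in either line. Timp3 followed in PBS (19.3 ± 14.1), where it overlapped Mmp14 (14.4 ± 3.03). In C40 the third place was held by Mmp13 (22.6 ± 9.73), overlapping Mmp3 (17.7 ± 14.8), and in I60 by Mmp3 (19.9 ± 4.33), overlapping Mmp10 (13.4 ± 8.0). Mmp2 was the least abundant in PBS (0.0254 ± 0.00810) and in C40 (0.951 ± 0.299), and Adam12 was the least abundant in I60 (0.0149 ± 0.00355).

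The 3 inhibitors together exceeded the 6 Mmps in every library on this length scale. The Timp sum was 451 and 293 CPM per kb in PBS, 404 and 328 in C40, and 269 and 242 in I60. The Mmp sum was 24.9 and 21.8 CPM per kb in PBS, 65.5 and 60.1 in C40, and 42.7 and 66.8 in I60. The ratio of Timp to Mmp RNA was 18.1 and 13.4 in PBS, 6.17 and 5.46 in C40, and 6.31 and 3.62 in I60. Both PBS libraries lay above all 4 H2O2 libraries, and the 2 lines overlapped. These sums were made over genes chosen with their values known and are given as a description of RNA, with no test.

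**Figure D4:**
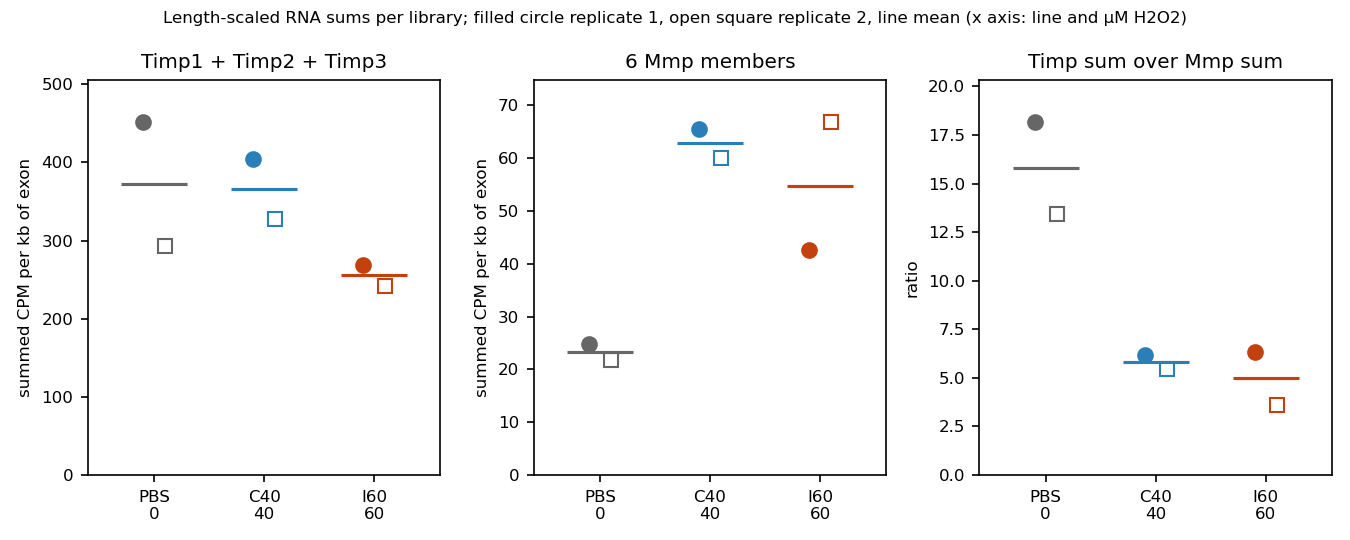
Summed CPM per kb of exon for the 3 Timps, for the 6 Mmps, and the ratio of the sums, in each library (filled circle replicate 1, open square replicate 2, line for the mean of 2; x axis, line and µM H2O2). The ratio is 13.4 or more in PBS and at most 6.31 in the H2O2 lines.

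Replicates of a group differed for several of these genes. In PBS, 5 of the 10 differed by more than 2-fold between the libraries (Mmp3, Mmp9, Mmp10, Mmp13 and Timp3), and 8 of 10 were lower in replicate 2, with a median log2 difference of replicate 2 minus replicate 1 of -0.87, beside -0.02 over all genes tested. In C40, 3 differed by more than 2-fold (Mmp3, Adam12 and Timp3), and in I60 only Mmp10. In C40, 6 of the 10 were lower in replicate 2, with a median of -0.01, beside -0.04 over all genes tested. In I60 the lean was the other way, with 8 of the 10 higher in replicate 2 and a median of 0.22, beside 0.06 over all genes tested. The SD of that difference over all genes tested was 0.363 in PBS, 0.623 in C40 and 0.379 in I60. What sets the 2 PBS libraries apart for these genes was not tested.

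Outside the 10 genes, 6 of the other 17 Mmp genes passed the filter. In C40 against PBS, 3 of these were called higher (11.2% of all genes tested) and 1 lower (9.02% of all), and in I60 against PBS 1 higher (13.9% of all) and 1 lower (13.1% of all). Mmp19 passed the filter only through the H2O2 lines, so it could be called against PBS in 1 direction only. Mmp28 (epilysin) was called higher in both lines, with 8.79 and 12.8 CPM in C40 and 15.8 and 26.1 CPM in I60, against 1.44 and 1.39 CPM in PBS (adjusted p = 0.00207 in C40 and 0.000328 in I60). Mmp24, a membrane-type protease, was called lower in both, with 2.56 and 4.45 CPM in C40 and 0.243 and 0.387 CPM in I60, against 19.1 and 7.58 CPM in PBS (adjusted p = 0.0406 in C40 and 0.000865 in I60), but its C40 call was lost without PBS replicate 1 (0.244), C40 replicate 1 (0.0755), I60 replicate 1 (0.0858) or I60 replicate 2 (0.0852). The Mmp24 call in C40 was also lost by limma with no filter (adjusted p = 0.0958) and with only the groups compared (0.0874). Mmp19 and the stromelysin Mmp11 were called higher in C40, with log2 changes of 3.30 for Mmp19 (adjusted p = 0.00280) and 1.55 for Mmp11 (adjusted p = 0.00629). Like Mmp9, both were called lower in I60 than in C40, by log2 changes of -2.0 for Mmp19 (adjusted p = 0.0368) and -1.57 for Mmp11 (adjusted p = 0.0105). The Mmp11 call in C40 was lost without PBS replicate 1 (log2 change 1.39). Mmp19 was not called in I60 against PBS by limma (1.30, adjusted p = 0.0746) or by edgeR. It was called there by DESeq2 (1.80, adjusted p = 0.0104) and by limma with only the groups compared (adjusted p = 0.0175). Mmp19 was also called there without C40 replicate 1 or 2 (1.30 for each).

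Reck, a membrane-anchored inhibitor of several Mmps, had 2.31 and 1.95 CPM in C40 and 2.00 and 3.76 CPM in I60, against 0 and 0.0166 CPM in PBS. The single PBS read gives a ratio of 249 in C40 (exact 95% interval 44.2 to 9865) and 339 in I60 (60.4 to 13436), intervals that cover counting error only. By limma Reck was called higher in both (adjusted p = 0.00213 in C40 and 0.000809 in I60). Like Mmp2, Reck passed the filter only through the H2O2 lines, so that its call was open upward only. Reck thus rose at a low level while Timp2 and Timp3 were lower in I60. Timp4 had too few reads to be tested.

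Of 8 other ADAM proteases with a metalloprotease site, 5 passed the filter. In C40 against PBS 0 were called by limma, with 1 lower at an unadjusted p below 0.05 and 1 lower (Adam10) by both edgeR and DESeq2. The limma value of Adam10 in C40 was -0.86 on the log2 scale (adjusted p = 0.0512). On TMM-scaled CPM limma called Adam10 lower in C40 (-0.85, adjusted p = 0.0394). Over all genes tested, 11.2% were called higher and 9.02% lower in C40. In I60 against PBS 1 of the 5 was called higher (13.9% of all genes tested) and 1 lower (13.1% of all). In I60 Adam10, a main sheddase of cell-surface proteins, was called lower, with 68.2 and 87.6 CPM against 216 and 147 CPM in PBS (log2 change -1.20, SE 0.25, adjusted p = 0.0120), and Adam8 was called higher (0.71, SE 0.19, adjusted p = 0.0343). The Adam10 call was lost without PBS replicate 1 (0.0992) or I60 replicate 1 (0.0940), and the Adam8 call without any one of the PBS and I60 libraries (0.0819 to 0.210). Adam17 and Adam15 were not called in either line. The fall of Adam12 to near 0 in I60 had no counterpart of that size among these 5.

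Secreted ADAMTS proteases, which cut proteoglycans or procollagens, included 6 of 19 genes past the filter, and 4 were called higher in both lines, where 11.2% of all genes tested were called higher in C40 and 13.9% in I60. Of these, Adamts14, Adamts10 and Adamts4 passed the filter only through the H2O2 lines and could be called against PBS in 1 direction only. Adamts14, a procollagen propeptidase, had 29.6 and 73.5 CPM in C40 and 64.6 and 93.7 CPM in I60, against 0 reads in PBS, which makes it at least 2069-fold higher in C40 and at least 3102-fold higher in I60 with PBS set to 3 reads over both libraries as its limit. Adamts10 also had 0 reads in PBS and was at least 113-fold higher in C40 and at least 50.5-fold higher in I60. The aggrecan-cutting Adamts4 rose by 2.51 on the log2 scale in C40 and 4.58 in I60. Adamts7 rose by 1.47 in C40 (adjusted p = 0.0245) and 2.63 in I60 (adjusted p = 0.00159), with its call in C40 lost without PBS replicate 1 (0.107), PBS replicate 2 (0.122), I60 replicate 1 (0.0609) or I60 replicate 2 (0.0606). The Adamts7 call in C40 was also lost by limma with no filter (adjusted p = 0.0594) and with only the groups compared (0.0646). The Adamts10 call in I60 was lost without I60 replicate 2 (log2 change 1.72).

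The plasminogen system, whose product plasmin is known to activate precursor Mmps, had 5 of 8 genes past the filter. In I60 the tissue activator Plat was called higher (log2 change 1.90, adjusted p = 0.00963) and the urokinase gene Plau lower (-1.64, adjusted p = 0.0343). With no filter the Plau call was lost (adjusted p = 0.0817 by limma). The Plat call was lost without PBS replicate 2 (0.0689) or I60 replicate 2 (0.0877), and the Plau call without any one of the PBS and I60 libraries (0.0857 to 0.196). In C40 against PBS, Plau gave -1.22 (adjusted p = 0.0987), which passed without C40 replicate 2 (0.00360), and Plat gave -0.94 (adjusted p = 0.120), which passed without C40 replicate 1 (0.0220). Plg, the plasminogen gene, had 0 reads in every library.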

How the data were processed

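Total RNA of 6 Py2T libraries was depleted of ribosomal RNA and sequenced single-end on a NextSeq instrument, per the labels' protocols, which describe depletion with 2 differing kits. Per the submitters' processing notes, STAR and mm10 were used. The STAR version, counter, gene annotation and strand option were not given in the sources used here. CPM were computed by the authors and deposited, with 1 row per Entrez gene. In every library 100% of the values were whole multiples of the library's smallest step within a tolerance of 0.01, so whole reads were recovered for edgeR and DESeq2, and depth is known.

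RefSeq (GRCm38.p6, the build also named mm10) matched 24374 of 24454 identifiers to symbols and gave gene positions. Exon lengths came from GENCODE. Two-sided tests were made on log2(CPM + 0.5) with limma 3.58.1 (R 4.3.3, eBayes with trend), fitting the 3 groups over all 6 libraries together, which leaves 3 residual degrees of freedom. Only genes reaching 1 CPM in 2 or more libraries entered. Fold changes are on the log2(CPM + 0.5) scale, which understates changes of low genes. Where a group held 20 reads of a gene or fewer, pooled reads were compared as a ratio with an exact 95% interval, or as a bound against 3 reads over the group. Alternatives were pseudocounts of 0.1 and 1, no filter, a filter of at least 5 CPM, TMM-scaled CPM, edgeR 4.0.16, DESeq2 1.42.0, a fit of the groups compared alone, a replicate block and leaving out each library. The test was tried on simulated data before use.

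The 10 genes and the other gene lists were chosen with earlier results of these data known. All 10 are described, and from each other list up to 6 of the genes called in C40 or I60 against PBS, by size of change. Genes that overlap or neighbour them are named too. The values of 1 gene of these lists are not reported here.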

Additional observations from a re-analysis of the deposited data

Results flagged for a closer look

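The effects of the H2O2 lines against PBS differed for Mmp9 and Adam12 by the limma test of I60 against C40, which is the test of that difference. For Mmp9 the I60 effect minus the C40 effect was -1.60 on the log2 scale (adjusted p = 0.0411), both lines lying above PBS and C40 more so. For Adam12 it was -5.59 (adjusted p = 0.00126), with I60 near 0 reads and C40 spread around PBS. The Adam12 call held under all 15 alternatives and the Mmp9 call was lost under 7 of them, as given above.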

How the results depend on the processing

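Leaving out a library moved the number of genes called to between 829 and 3481 in C40 against PBS, 1368 and 4227 in I60 against PBS, and 336 and 1771 in I60 against C40. The lowest counts came without PBS replicate 1 in the first and second and without I60 replicate 1 in the third. By edgeR on the recovered reads 2367 genes were called in C40 against PBS, 3110 in I60 against PBS and 1084 in I60 against C40. In I60 against C40 1669 genes were called by DESeq2 and 699 with only the groups compared. Of the 10 genes, the number called ranged from 2 to 7 in I60 against PBS and from 1 to 3 in I60 against C40 on leaving out a library. The last number was 1 at a pseudocount of 0.1, 1 with no filter, 5 by DESeq2 and 4 with the replicate block. The replicate numbers are shared by the groups, with 2 pairs and correlations of replicate differences of 0.154 (C40 and PBS), 0.105 (I60 and PBS) and 0.438 (I60 and C40). With the replicate block 2853 genes (4 of the 10) were called in C40 against PBS, 3494 (7 of the 10) in I60 against PBS and 1253 (4 of the 10) in I60 against C40. The block added the calls of Mmp3 in C40 against PBS (adjusted p = 0.0268), Timp2 (0.0158) and Timp3 (0.0423) in I60 against C40, and, outside the 10, Adam10 (0.0411) and Plau (0.0106) in C40 against PBS. Values near 0 changed sign in C40 against PBS: Adam12 was 0.11 by edgeR and by DESeq2, and Fosl2 0.014 by each. Leaving out a library gave -1.03 to 0.76 for Adam12, -0.41 to 0.021 for Mmp14, -0.014 to 0.71 for Timp1, -0.65 to 0.010 for Timp2 and -0.43 to 0.34 for Fosl2. In I60 against PBS it gave -0.21 to 0.51 for Timp1, -0.20 to 0.17 for Mmp11 and -0.11 to 0.80 for Jun, and in I60 against C40 -0.088 to 0.57 for Mmp2 and -0.51 to 1.42 for Mmp3. The causes were not tested. TMM scaling moved the median change of all genes by less than 0.1. With 2 libraries a group, 3 residual degrees of freedom limit what can be called, and Mmp2 in PBS and Adam12 in I60 rest on 10 and 17 reads.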

Other observations

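The genes whose levels followed those of the 10 most closely over the 6 libraries are given as a description, by Pearson's r of log2(CPM + 0.5) over 11138 genes compared. The libraries share groups, so high values are common. Adam12 was most like Rtn4r (r = 0.998) and Syde2 (r = 0.996), and Mmp2 most like Tha1 (r = 0.999) and Tnfrsf9 (r = 0.998). Mmp13 was most like Tmem47 (r = 0.996), Mmp9 most like Ier3ip1 (r = 0.995), Timp2 most like Upf3a (r = 0.997) and Timp3 most like Itga6 (r = 0.988). For Mmp3, Mmp10, Mmp14 and Timp1 the closest gene reached r = 0.989 (Glcci1), 0.985 (Mbip), 0.981 (Miip) and 0.984 (Magohb). Among the 10 genes themselves, Timp2 and Timp3 were the most alike pair (r = 0.969), followed by Mmp9 and Mmp13 (r = 0.938).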
